A study of Mus musculus with 4 samples.

Results

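Endothelial cells that remained in sorts of gut mesenchymal stromal cells (MSC) were examined. A cell was counted as endothelial when it carried at least 1 unique molecular identifier (UMI, a tag that marks 1 captured mRNA molecule) for at least 3 of 6 markers (*Pecam1*, *Cdh5*, *Kdr*, *Egfl7*, *Cldn5* and *Esam*) and no UMI for the fibroblast gene *Pdgfra*. Members were thus chosen by their own UMIs for these 7 genes. Quality control (QC) asked for no fewer than 500 genes and 1000 UMIs in a cell, with mitochondrial genes holding 10% of its UMIs or less. The rule found 612 of 32216 QC-passing cells (1.9%), and 588 of them lay in the replicate 1 libraries.

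Single cells came from the lamina propria of small intestine and colon of untreated female C57BL6/Nrj mice aged 8 to 10 weeks, after the muscle coat had been taken off. There were 2 droplet libraries for either intestine (replicates 1 and 2), and 3 mice were pooled in each experiment, so that single animals cannot be told apart. The sort kept live cells negative for CD45, Ter119, CD31, BP3, EpCAM and L1CAM and positive for integrin β1 (*Itgb1*). CD31 is the product of *Pecam1*, so endothelial cells had been gated out, and the cells described here are those that the gate let through. They need not stand for the endothelium of either intestine.

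Endothelial cells line blood and lymphatic vessels. In the gut, fenestrated capillaries below the epithelium take up absorbed nutrients, venules admit leukocytes from the blood, and lacteals, the lymphatic capillaries of the villi, carry off absorbed fat. Blood endothelium is marked by *Plvap*, which forms the diaphragms of fenestrae, and by *Flt1*, a VEGF receptor. Lymphatic endothelium is marked by the transcription factor *Prox1*, the hyaluronan receptor *Lyve1* and the chemokine *Ccl21a*.

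Members made up 347 of 1834 QC-passing cells in small intestine replicate 1 (18.9%, exact 95% interval 17.2 to 20.8) and 241 of 2431 in colon replicate 1 (9.91%, 8.75 to 11.2). In replicate 2 they were 1 of 15263 cells in small intestine (0.00655%) and 23 of 12688 in colon (0.181%, 0.115 to 0.272). Shares within an intestine thus differed more between its 2 libraries than between the intestines within replicate 1, and the sort gate can set them. With 2 libraries against 2, an exact permutation test cannot pass a threshold of 0.05, and none was run. Intervals here and below cover counting error only. Libraries held between 14341443 and 52269372 UMIs. Median depth in replicate 1 was 4519 UMIs per member and 8103 per other cell in small intestine, and 5183 and 9230.5 in colon.

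Few cells lay near the threshold of the rule, as counted by the same markers that set it. Of the QC-passing cells without *Pdgfra*, 14345 carried no marker, 839 carried 1, 29 carried 2, 51 carried 3, 141 carried 4, 403 carried 5 and 17 carried all 6. Just inside the threshold, 60.8% of the 51 cells with exactly 3 markers had a UMI for *Tie1*, an endothelial receptor kinase outside the rule, and 3.92% for the fibroblast proteoglycan *Dcn*. Just outside it, the 29 cells with 2 markers had *Tie1* in 27.6% and *Dcn* in 48.3%. A further 16 cells met the marker count but carried *Pdgfra*, at a median of 2 UMIs, and 81.3% of them had *Dcn*.

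**Figure D1:**
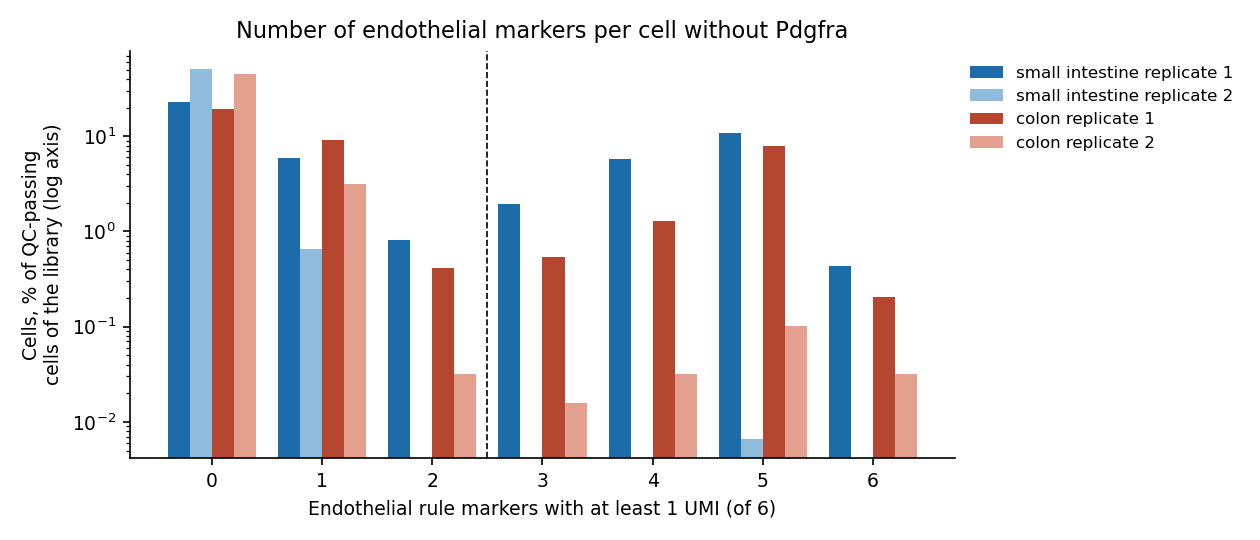
Share of QC-passing cells without *Pdgfra* in each library (log axis, percent of the QC-passing cells of that library) by the number of the 6 endothelial markers with at least 1 UMI, with 1 bar colour per library and a dashed line at the threshold of 3. Few cells sat at 2 markers (29 in all), and the replicate 1 libraries (dark bars) held nearly all cells at 3 or more.

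The label was checked against endothelial genes that the rule did not use. All 24 genes of a list of endothelial genes outside the rule were detected in members of small intestine replicate 1, colon replicate 1 and colon replicate 2. Their summed level was 12434, 15091 and 8920 counts per 1000000 UMIs (CPM) in these members, against 1155, 1111 and 914 CPM in the other cells of the same libraries. *Emcn*, a sialomucin of capillaries and veins, stood at 818, 1033 and 519 CPM in members and at 0.408 to 2.98 CPM in other cells. *Ptprb*, the endothelial receptor phosphatase VE-PTP, stood at 587, 475 and 707 CPM. Since the rule chose these cells by endothelial genes, levels against other cells are descriptions and were not tested.

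The antigens of the sort were read as mRNA. *Pecam1* had a UMI in 91.6% of members in small intestine replicate 1, 96.7% in colon replicate 1 and 95.7% in colon replicate 2. After each cell was thinned to 1000 UMIs these shares were 52.5%, 63.5% and 60.9%, against 0.404% and 0.137% of other cells in the replicate 1 libraries. *Itgb1*, for which cells had been selected, stood at 350, 422 and 431 CPM in members. *Ptprc*, which encodes CD45, had 3, 0 and 0 UMIs in these members, and *Epcam* had 2, 1 and 0. Surface protein was not measured in these files.

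Transcripts of fibroblasts and pericytes were highest in members of colon replicate 2, and those of smooth muscle in members of colon replicate 1. The 6 fibroblast markers summed to 171 CPM in small intestine replicate 1, 301 CPM in colon replicate 1 and 1644 CPM in colon replicate 2, with *Pdgfra* at 0 by the rule. Pericyte markers, all 6 detected, summed to 257, 442 and 1314 CPM, and the 5 smooth muscle markers to 356, 1109 and 303 CPM. At least 2 pericyte or 3 fibroblast markers were carried by 46 members (7.52%), of which 10 were among the 23 members of colon replicate 2. Values that rest on colon replicate 2 are therefore set beside, and not pooled with, those of colon replicate 1.

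Genes with the highest fold of members over other cells, summed over all libraries, included several with known roles in vessels. *Cldn5* and *Cdh5*, both in the rule, encode junction proteins. *Gpihbp1*, the capillary anchor of lipoprotein lipase, stood at 272 CPM in members and 0.124 CPM in other cells. *Sox17* and *Sox18* are transcription factors of vessel identity, *Robo4* is an endothelial guidance receptor, and *Tal1* is a haemato-endothelial transcription factor. The nuclear receptor *Nr5a2*, better known from liver and ovary, stood at 47.0 CPM in members against 0.0155 CPM in other cells. It was read in 51 of 347 members of small intestine replicate 1, 56 of 241 of colon replicate 1 and 3 of 23 of colon replicate 2.

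Members fell into lymphatic-like cells and the rest. A cell was called lymphatic-like with a UMI for at least 3 of *Prox1*, *Lyve1*, *Mmrn1*, *Flt4*, *Reln* and *Ccl21a*, a gate set after the data had been seen. It held 95 of 347 members in small intestine replicate 1 (27.4%, 22.8 to 32.4), 62 of 241 in colon replicate 1 (25.7%, 20.3 to 31.7) and 1 of 23 in colon replicate 2. Almost no member lay near the gate, since 1 member of small intestine replicate 1 carried exactly 2 of the 6 genes and none of the colonic members did. Median depth was 5075 and 4393 UMIs in lymphatic-like cells and 4408 and 5659 UMIs in the other members, for small intestine and colon replicate 1.

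The members that were not lymphatic-like carried genes of blood vessels. *Plvap* stood at 7921 and 10423 CPM in the other members of small intestine and colon replicate 1, against 10.3 and 94.2 CPM in lymphatic-like cells. *Flt1* stood at 1116 and 1316 CPM in the other members and had no UMI in lymphatic-like cells of either library. The same was true of *Sox17*, at 366 and 576 CPM, and of *Esm1*, a marker of sprouting endothelium, at 206 and 350 CPM. *Ly6c1*, a surface antigen of capillaries, stood at 4934 and 5736 CPM against 0 and 3.25 CPM. *Kitl*, the ligand of the KIT receptor, stood at 376 and 395 CPM against 6.2 and 0 CPM.

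Among the rule markers, *Cldn5* and *Esam* split the members in opposite ways. *Cldn5* stood at 589 and 942 CPM in lymphatic-like cells and at 72.0 and 11.8 CPM in the other members. *Esam*, an adhesion molecule of endothelial tight junctions, stood at 10.3 and 22.7 CPM in lymphatic-like cells and at 1039 and 1114 CPM in the other members. *Cdh5* was similar in both, at 378 and 419 CPM against 504 and 547 CPM.

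Lymphatic-like cells also carried secreted and signalling genes that the gate had not used. *Lcn2*, an iron-scavenging antibacterial protein, stood at 2004 CPM in small intestine replicate 1 and 1316 CPM in colon replicate 1, against 4.34 and 0 CPM in the other members. *Fgl2*, a secreted immunoregulator, stood at 1461 and 3564 CPM against 9.55 and 2.73 CPM. *Il7*, the lymphocyte survival cytokine, stood at 97.1 and 205 CPM against 0.868 and 0.91 CPM. *Rspo3*, which amplifies WNT signalling, stood at 296 and 149 CPM against 0 and 6.37 CPM. The transcription factor *Tbx1* stood at 176 and 179 CPM and had no UMI in the other members of either library.

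Other surface and enzyme genes followed the same split. *Thy1*, which encodes CD90, stood at 467 and 1316 CPM in lymphatic-like cells against 2.60 and 8.19 CPM. *Cyp4b1*, a cytochrome P450 enzyme, stood at 1263 and 835 CPM against 6.08 and 7.28 CPM. *Gpihbp1* was present on both sides, at 632 and 530 CPM in lymphatic-like cells and 99.8 and 238 CPM in the other members. *Ccl21a* itself stood at 10010 and 18714 CPM in lymphatic-like cells and at 0 and 1.82 CPM in the other members. Its reads may be shared with near-identical copies, of which *Gm21541* was also read (74 and 91 UMIs), so that the level of a single copy is uncertain.

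**Figure D2:**
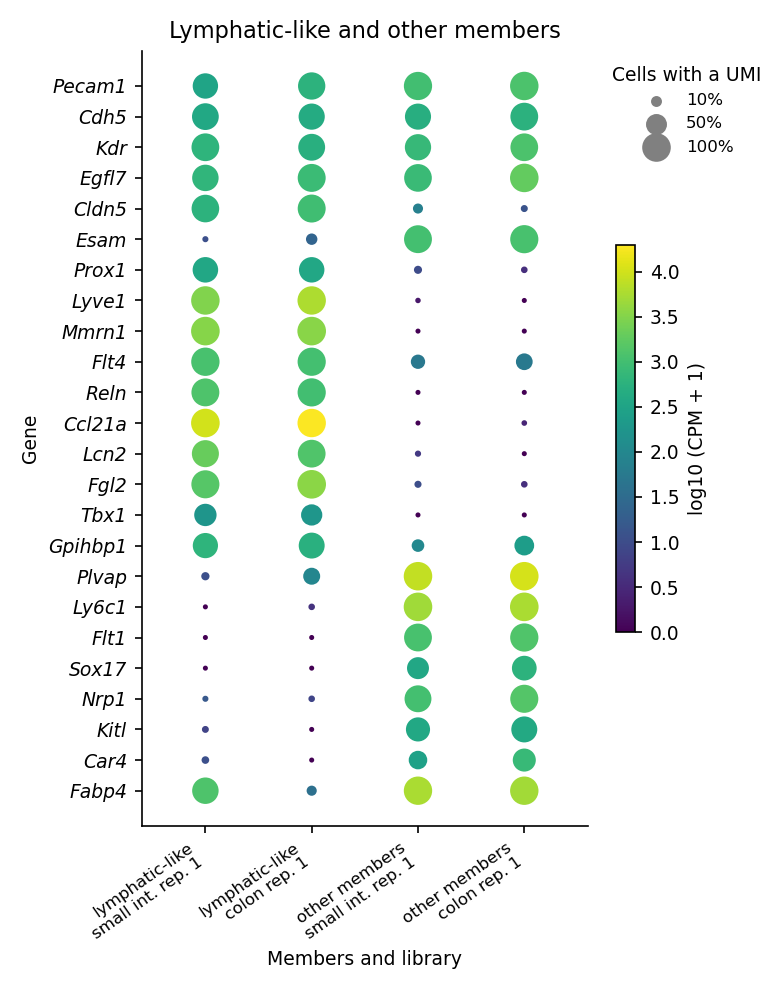
Level (colour, log10 of CPM + 1) and share of cells with a UMI (dot area) of rule markers, lymphatic gate genes and further genes in lymphatic-like and other members of small intestine and colon replicate 1. *Esam*, *Plvap*, *Ly6c1* and *Flt1* are lower in lymphatic-like cells than in the other members in both libraries, and *Cldn5*, *Lcn2* and *Tbx1* are lower in the other members.

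Most of the other members carried genes of capillaries. At least 3 of 6 capillary genes (*Rgcc*, *Plvap*, *Gpihbp1*, *Cd36*, *Cd300lg* and *Car4*) were read in 193 of 252 of these cells in small intestine replicate 1 (76.6%) and in 159 of 179 in colon replicate 1 (88.8%), and in 13 of 95 and 8 of 62 lymphatic-like cells. At least 3 of 6 arterial genes were read in 57 (22.6%) and 35 (19.6%) of the other members. At least 3 of 6 venous genes were read in 16 (6.35%) and 3 (1.68%). These shares rise with depth and were not compared further.

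To ask how these endothelial cells differ between the intestines, UMIs of members were summed in small intestine replicate 1 and colon replicate 1. There is 1 library per group, so the comparison has no replicate check, and a gene was called higher only with a difference of at least 3-fold and 95% Poisson intervals that did not overlap. Of 11035 genes with at least 8 UMIs in both sums together, 195 (1.77%) were higher in colon and 165 (1.5%) in small intestine, 3.26% in all. The median gene was higher in colon by 0.18 on the log2 scale. When libraries were scaled to a median ratio of 1, 136 genes were higher in colon and 222 in small intestine, so that the share of calls higher in colon went from 54.2% to 38.0%. With colon replicate 2 in place of replicate 1, 248 genes were higher in colon and 191 in small intestine, of which 23 of the 195 colonic and 21 of the 165 small intestinal genes were shared. Of the 195, 124 (63.6%) lay on the same side of small intestine in colon replicate 2, and of the 165, 133 (80.6%). Only 131 of the 195 and 112 of the 165 had a UMI in colon replicate 2. A gene without a UMI there cannot lie above small intestine. That adds to the share of the 165 and takes from that of the 195, so the shares cannot be compared. The 23 members of colon replicate 2 are given beside each result, and both colon libraries share the small intestine library as their control.

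**Figure D3:**
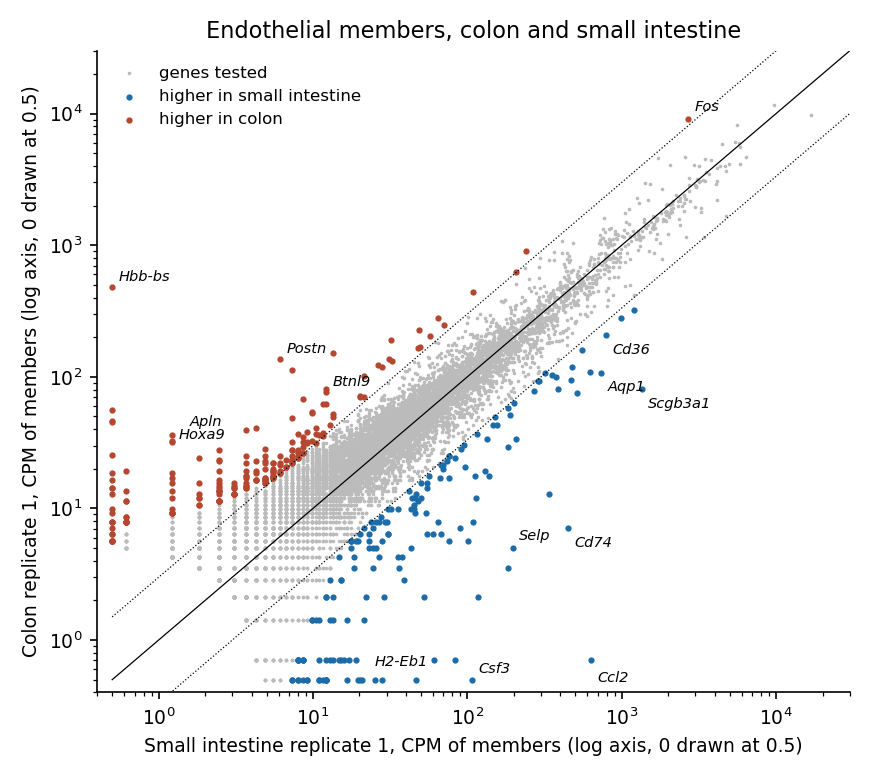
CPM of members in small intestine replicate 1 (x) and colon replicate 1 (y) for 11035 genes, on log axes with 0 drawn at 0.5. The solid line marks equal levels and the dotted lines a 3-fold difference. Genes called higher in colon are red and those higher in small intestine blue. *Ccl2*, *Cd74* and *Csf3* lie far below the line, and *Hbb-bs*, with 99.6% of its UMIs from 1 cell, lies far above it.

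Core endothelial genes gave no call between the intestines. Of the 24 genes of the endothelial list outside the rule, all tested, none passed in either direction, and their median log2 ratio of colon over small intestine was 0.20, against 0.18 for all genes. Of the rule markers, *Egfl7*, a secreted angiogenic factor, stood at 766 CPM in small intestine replicate 1 and 1602 CPM in colon replicate 1, a 2.09-fold difference (1.95 to 2.24), and at 782 CPM in colon replicate 2. *Cdh5* stood at 467, 519 and 377 CPM. Basement membrane genes (21 tested, median 0.24) and BMP and TGF-β signalling genes (21 tested, median 0.23) also gave no call in either direction. *Col4a1*, a main chain of basement membrane collagen, stood at 818, 966 and 1624 CPM.

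Of 19 genes of MHC class I and II pathways, 8 were higher in small intestine and none in colon, with a median log2 ratio of -1.56, and the other 11 did not pass. The list also moved in the other cells of the same libraries, where 11 of 18 tested genes were higher in small intestine and none in colon (median -2.06). Of all 15159 genes tested in these other cells, 1137 were higher in small intestine and 578 in colon. *Cd74*, the invariant chain of MHC class II, had 739 UMIs in 72 of 347 members of small intestine replicate 1 (452 CPM, interval 420 to 485), 10 UMIs in 6 of 241 members of colon replicate 1 (7.11 CPM, 3.41 to 13.1) and 0 UMIs in colon replicate 2, where up to 24.9 CPM is allowed by counting. The class II chains *H2-Aa* and *H2-Eb1* had 193 and 137 UMIs in small intestine replicate 1, against 3 and 1 in colon replicate 1. Their ratios of small intestine over colon were 55.3 (18.6 to 270) and 118 (20.8 to 4684). After thinning to 1000 UMIs, *Cd74* was read in 12.7% of members in small intestine replicate 1 and 0.415% in colon replicate 1.

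Class I genes, read in nearly every member, gave smaller ratios. *H2-K1*, a classical class I chain, had a UMI in 346 of 347 members of small intestine replicate 1 and 232 of 241 of colon replicate 1, with 3403 and 1156 CPM, and 1320 CPM in colon replicate 2. *B2m*, the class I light chain, stood at 2605, 1157 and 1085 CPM. Both stayed under 3-fold over all members. The near-identical Qa genes *H2-Q6* and *H2-Q7*, between which reads may be split, stood at 466 and 515 CPM in small intestine replicate 1, 94.6 and 75.4 CPM in colon replicate 1 and 162 and 162 CPM in colon replicate 2.

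More genes of the list passed in lymphatic-like cells, where 12 of 18 tested genes of the list were higher in small intestine (median log2 ratio -2.20), beside 3.13% of all genes tested in these cells (and 2.27% higher in colon). In the other members 7 of 18 were (median -1.34), beside 1.14% of all genes (1.86% were higher in colon and 3% either way). The difference between both kinds of member was not tested. *Cd74* stood at 944 CPM in lymphatic-like cells and 245 CPM in the other members of small intestine replicate 1, and at 13.0 and 5.46 CPM in colon replicate 1. *H2-K1* stood at 4627 and 890 CPM in lymphatic-like cells and at 2889 and 1230 CPM in the other members, for small intestine and colon.

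Cells outside the members, and leukocyte transcripts, moved with these genes. In the other cells *Cd74* stood at 709 and 15.6 CPM in small intestine (replicates 1 and 2) and at 52.2 and 11.7 CPM in colon, so that small intestine replicate 1 stood apart there too. The 6 immune markers summed to 41.6 CPM in members of small intestine replicate 1 (5 of 6 detected, *Cd3e* at 0), 3.56 CPM in colon replicate 1 (3 of 6) and 0 CPM in colon replicate 2. In the other cells of small intestine replicate 1 they summed to 311 CPM, beside *Cd74* at 709 CPM. The 4 plasma cell markers summed to 45.2, 1.42 and 6.74 CPM in members and to 12428 CPM in the other cells of small intestine replicate 1. The part of leukocyte RNA in the *Cd74* difference was not tested.

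Interferon response genes gave 1 call among 30 in all members (*Cxcl9*, higher in small intestine, median log2 ratio -0.64), but 11 of 30 in lymphatic-like cells, all higher in small intestine (median -1.43), beside 3.13% of all genes tested in these cells. In the other cells of the same libraries 3 of 30 were higher in small intestine and none in colon (median -1.0). There, 1137 of all 15159 genes tested were higher in small intestine and 578 in colon. *Isg15*, a ubiquitin-like interferon product, stood at 1593 CPM in lymphatic-like cells of small intestine replicate 1 and 318 CPM in those of colon replicate 1. *Psmb8*, a subunit of the immunoproteasome, stood at 688 and 107 CPM, and *Gbp2*, an interferon-induced GTPase, at 457 and 101 CPM. In the other members *Isg15* stood at 1460 and 1074 CPM and *Psmb8* at 421 and 304 CPM.

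Single chemokine and cytokine genes were also higher in small intestine. *Ccl2*, which attracts monocytes (chr11:82035571-82037453 in mm10), had 1041 UMIs in 51 members of small intestine replicate 1 (636 CPM, 598 to 676) and 1 UMI each in colon replicates 1 and 2. The ratio to colon replicate 1 was 895 (160 to 35368). Of the 1041 UMIs, 975 came from lymphatic-like cells, where *Ccl2* stood at 2015 CPM, against 57.3 CPM in the other members. Colon replicate 2 had 1 lymphatic-like cell, so it says little on genes of these cells. *Ccl2* was also read in other cells, at 576 and 524 CPM in small intestine (replicates 1 and 2) and 126 and 267 CPM in colon.

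*Cxcl2*, a neutrophil chemokine, followed *Ccl2* into lymphatic-like cells, with 1021 CPM there in small intestine replicate 1 and no UMI in colon replicate 1. Over all members it stood at 339, 12.8 and 60.6 CPM in small intestine replicate 1 and colon replicates 1 and 2. Other cells held *Cxcl2* too, at 288.5 and 764.7 CPM in small intestine (replicates 1 and 2) and 42.2 and 228.5 CPM in colon. *Lif*, an IL-6 family cytokine, had 28 UMIs in small intestine, 27 of them in lymphatic-like cells, and 1 UMI in each colon library. Its ratio to colon replicate 1 was 24.1 (3.98 to 984).

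Other cytokines lay in the members that were not lymphatic-like. *Csf3*, the granulocyte growth factor G-CSF, had 175 UMIs in 32 members of small intestine replicate 1 (107 CPM) and none in colon replicate 1, at least 50.1-fold higher against a floor of 3 counts in that library, and 1 UMI in colon replicate 2. Other cells of small intestine replicate 1 held it at 0.481 CPM. *Il6* stood at 188 CPM in the other members of small intestine replicate 1 and 21.9 CPM in those of colon replicate 1, and over all members at 138, 17.8 and 80.8 CPM with colon replicate 2 last. *Cxcl9*, an interferon-induced lymphocyte chemokine, stood at 46.5, 0 and 114 CPM, so that the colon libraries lay on either side of small intestine. Other cells held *Cxcl9* at 74.5 and 90.3 CPM in small intestine (replicates 1 and 2) and 11.2 and 28.5 CPM in colon.

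Genes of leukocyte entry gave 8 calls higher in small intestine and 1 higher in colon among 21 tested, with a median log2 ratio of -0.33. Several belong to venules, and their UMIs came from few cells. *Selp*, the platelet and endothelial P-selectin, stood at 196 CPM in small intestine replicate 1, 4.98 CPM in colon replicate 1 and 1731 CPM in colon replicate 2, so its direction turned with the colon library. *Madcam1*, the ligand for gut-homing lymphocytes, stood at 182, 3.56 and 80.8 CPM. *Ackr1*, a chemokine-binding receptor of venules, stood at 101, 5.69 and 323 CPM. *Vcam1*, the ligand of integrin α4β1, stood at 76.4, 5.69 and 775 CPM.

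Of the members, 13 in small intestine replicate 1, 1 in colon replicate 1 and 3 in colon replicate 2 carried at least 2 of *Ackr1*, *Selp* and *Madcam1*. The 13 cells held 315 of 321 *Selp* UMIs, 290 of 298 *Madcam1* UMIs and all 165 *Ackr1* UMIs of their library. The 3 cells of colon replicate 2 held all 257 *Selp* UMIs and 112 of 115 *Vcam1* UMIs. By contrast, the 13 cells of small intestine replicate 1 held 41 of 125 *Vcam1* UMIs, and the 1 cell of colon replicate 1 held 0 of 8. The numbers of such cells are too small for a comparison of shares. *Icam1*, the ligand of leukocyte integrins, was by contrast read in 227, 95 and 16 members at 1204, 322 and 620 CPM, and its difference lay mostly in lymphatic-like cells (2106 and 201 CPM in small intestine and colon replicate 1).

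Few transport and capillary genes passed. Of 22 tested genes of fenestration, lipid and solute transport, *Cd36* and *Aqp1* were higher in small intestine and *Rbp7* in colon (median log2 ratio 0.20), and of 6 capillary genes, *Cd36* was higher in small intestine and *Car4* in colon. *Scgb3a1*, a small secreted protein (chr11:49663610-49665118), stood at 1343 CPM (1288 to 1401) in small intestine replicate 1, 81.1 CPM (66.9 to 97.4) in colon replicate 1 and 74.1 CPM (37.0 to 133) in colon replicate 2. It was read in 184 of 347, 36 of 241 and 2 of 23 members. After thinning, 42.4% and 6.22% of members held it in the replicate 1 libraries, against 0.74% and 0 of other cells. Nearly all of its UMIs came from members that were not lymphatic-like, at 1905 and 104 CPM. *Cd36*, the fatty acid translocase, stood at 794 CPM (751 to 838), 208 CPM (185 to 234) and 236 CPM (164 to 328), with small intestine above both colon libraries.

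*Aqp1*, the water channel, stood at 735, 107 and 155 CPM in small intestine replicate 1 and colon replicates 1 and 2. It lay in lymphatic-like cells (2352 and 487 CPM in the replicate 1 libraries) and, lower, in the other members (56.4 and 0.91 CPM). *Fabp4*, the fatty acid chaperone of capillaries, was level over all members at 4308, 3986 and 5295 CPM. In lymphatic-like cells alone, however, it stood at 1252 CPM in small intestine and 35.7 CPM in colon; the other members stood at 5590 and 5092 CPM.

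In the opposite direction, *Car4*, the carbonic anhydrase of capillary surfaces, stood at 206 CPM in small intestine replicate 1 and 625 CPM in colon replicate 1, and at 135 CPM in colon replicate 2. *Rbp7*, a retinol-binding protein of capillary endothelium, stood at 70.3, 247 and 94.3 CPM. It was higher in colon replicate 1 in both kinds of member, at 41.3 against 205 CPM in lymphatic-like cells and 82.4 against 259 CPM in the others. For both genes colon replicate 2 lay close to the small intestine.

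Of 11 tested genes that handle vitamin A, 3 were higher in small intestine and 2 in colon. Retinoic acid, the product of vitamin A, shapes immunity in small intestine. *Cyp26b1* and *Cyp1b1* were among those higher in small intestine, and *Rbp4* and *Rbp7* were higher in colon. *Cyp26b1*, which breaks down retinoic acid, stood at 285, 92.5 and 67.4 CPM. In lymphatic-like cells it had 218 UMIs in small intestine replicate 1 (450 CPM) and none in colon replicate 1. With that 0 set to the floor of 3 counts the ratio was 46.2. Members held *Cyp26b1* well above other cells, which lay between 1.53 and 2.16 CPM. *Cyp1b1*, an oxidase of retinol and steroids, had 100 UMIs in small intestine, 1 in colon replicate 1 (ratio 85.9, 15.1 to 3428) and 2 in colon replicate 2. It differed in the other cells too, at 39.3 and 26.2 CPM in small intestine and 0.0488 and 0.117 CPM in colon. *Rarb*, a retinoic acid receptor and target, stood at 180 and 26.0 CPM in lymphatic-like cells of small intestine and colon.

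Of 25 tested ligands that endothelium sends to its surroundings, 5 were higher in small intestine and 2 in colon. *Wnt2*, a canonical WNT ligand, had 86 UMIs in 50 members of small intestine replicate 1 (52.6 CPM), all of them lymphatic-like, 3 UMIs in colon replicate 1 (2.13 CPM) and 0 in colon replicate 2. The ratio was 24.6 (8.15 to 122). *Ltc4s*, the synthase of cysteinyl leukotrienes, likewise lay in lymphatic-like cells of small intestine, with 345 CPM there and 13.0 CPM in colon. *Apln*, a peptide ligand of growing vessels, went the opposite way, with 3.67 CPM in small intestine replicate 1, 39.1 CPM in colon replicate 1 and 47.2 CPM in colon replicate 2, though 5, 14 and 2 members held it. VEGF and angiopoietin signalling (20 tested), Notch signalling (16 tested) and junction genes (13 tested) each gave 1 call higher in colon, *Apln*, *Hey2* and *Cldn15*, with *Pgf* the single one of them higher in small intestine.

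**Figure D4:**
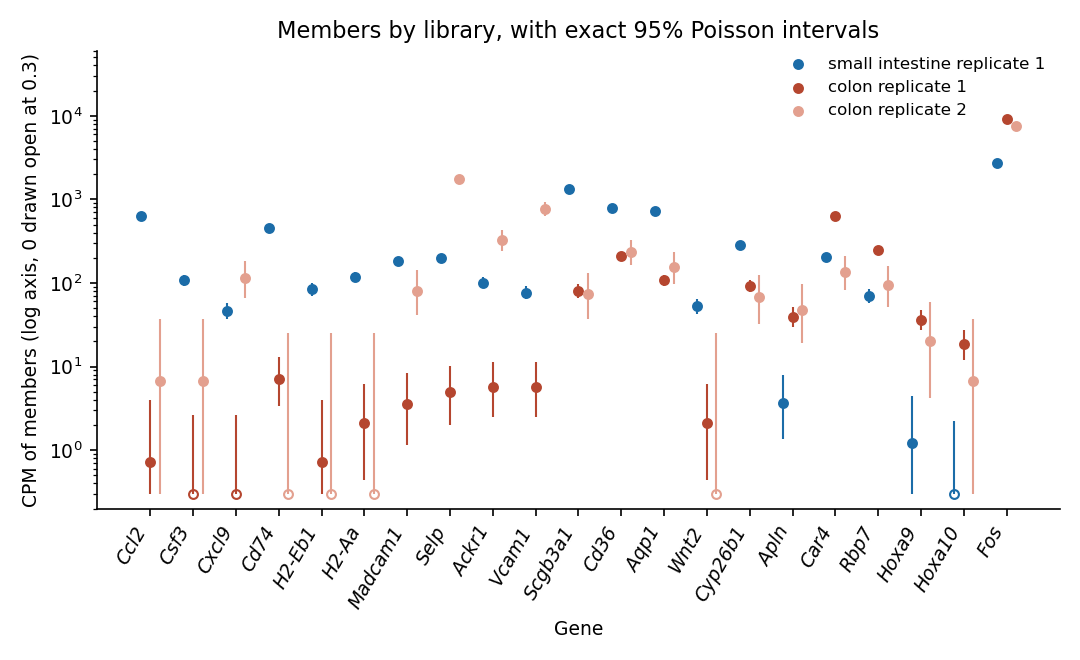
CPM of members (log axis) in small intestine replicate 1 (blue), colon replicate 1 (dark red) and colon replicate 2 (light red), with exact 95% Poisson intervals that cover counting error only and 0 drawn as an open circle at 0.3. *Ccl2*, *Cd74*, *Scgb3a1* and *Cd36* are higher in small intestine than in both colon libraries, while *Selp*, *Ackr1* and *Vcam1* change sides between the colon libraries.

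Among genes higher in colon, *Hoxa9* (chr6:52223100-52231089) had 2 UMIs in small intestine replicate 1 (1.22 CPM), 51 UMIs in 37 members of colon replicate 1 (36.3 CPM) and 3 UMIs in colon replicate 2 (20.2 CPM). The ratio was 29.7 (7.80 to 252). *Btnl9*, a butyrophilin-like gene of endothelium, stood at 12.2, 76.8 and 33.7 CPM, and other cells were at or under 0.488 CPM. *Htr2b*, a serotonin receptor, had 1 UMI in small intestine and 27 in colon replicate 1, all in lymphatic-like cells (2.07 and 87.7 CPM), with a ratio over all members of 31.4 (5.18 to 1286). *Pkhd1l1*, of the fibrocystin family, behaved alike, with 2 and 26 UMIs that also all came from lymphatic-like cells. *Enpep*, the aminopeptidase A that cleaves angiotensin, stood at 1.22, 32.7 and 33.7 CPM, read in 2, 20 and 3 members. Other cells held *Enpep* at 15.55 and 9.29 CPM in small intestine and 14.7 and 9.29 CPM in colon.

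Several others of the colonic set came from few cells or were also higher in the other cells of colon. *Hbb-bs*, a haemoglobin chain, had 679 UMIs in 3 members of colon replicate 1, with 99.6% of them in 1 cell. *Hba-a1* and *Hba-a2* had 79 and 64 UMIs in 1 member. *Rbp4* came from 4 members of colon replicate 1. *Postn*, a matrix protein of fibroblasts, stood at 6.11 CPM in members of small intestine replicate 1 and 136 CPM in colon replicate 1, beside 265 and 3524 CPM in the other cells of these libraries. Without the members that carried pericyte or fibroblast markers, the log2 ratio of *Postn* was 0.53 and no longer passed. In lymphatic-like cells the smooth muscle genes *Acta2*, *Myh11*, *Actg2* and *Cnn1* were called higher in colon, *Acta2* at 12.4 and 939 CPM, beside 1363 and 3777 CPM in the other cells. The colonic UMIs of all 4 genes came from 1 of the 62 lymphatic-like cells, with 289 UMIs for *Acta2*. The part of RNA from these other cells was not tested.

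Immediate early genes, which respond within minutes to stimuli and to tissue dissociation, gave 1 call higher in colon (*Fos*) and 1 higher in small intestine (*Fosl1*) among 22 tested, with a median log2 ratio of 0.32. *Fos* stood at 2699 CPM in members of small intestine replicate 1, 9085 CPM in colon replicate 1 and 7626 CPM in colon replicate 2. Other cells stood at 3840 and 6584 CPM in small intestine and 10620 and 11209 CPM in colon. The difference between the kinds of member was not tested. In lymphatic-like cells 7 of 21 were higher in small intestine and none in colon, as with *Fosb* at 1823 and 143 CPM. Of all genes tested in these cells, 3.13% were higher in small intestine and 2.27% in colon. In the other members, of 22 tested, *Fos*, *Jun* and *Egr2* were higher in colon and *Fosl1* in small intestine. Of all genes tested there, 1.86% were higher in colon and 1.14% in small intestine.

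Hox genes, which keep position along the body axis, gave other counts in members than in the other cells, a difference that was not tested. Of 18 tested in members, 4 were higher in colon (*Hoxa9*, *Hoxa10*, *Hoxa11* and *Hoxb6*) and none in small intestine. In the other cells of the same libraries 10 of 31 were higher in colon and 16 in small intestine. Of all genes tested, 195 of 11035 were higher in colon and 165 in small intestine in members. In the other cells these were 578 and 1137 of 15159. The other cells held 12476665 and 20495043 UMIs in small intestine and colon replicate 1, against 1636223 and 1406104 in members. Hoxb genes summed to 180 CPM in members of small intestine replicate 1, 206 CPM in colon replicate 1 and 202 CPM in colon replicate 2. In the other cells they summed to 156 and 164 CPM in small intestine and 26.4 and 26.7 CPM in colon, so that members overlapped between the intestines within their intervals (160 to 201 and 183 to 231 CPM) and the other cells did not. *Hoxb4* alone stood at 67.2, 68.3 and 74.1 CPM in members and at 68.0, 71.3, 11.4 and 11.5 CPM in other cells.

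The remaining clusters differed as well. *Hoxb9* stood at 15.3, 22.1 and 67.4 CPM in members and at most 0.0976 CPM in the other cells of any library, and none of its UMIs in the replicate 1 libraries came from lymphatic-like cells. Hoxc genes summed to 4.89 CPM in members of small intestine replicate 1 (8 UMIs), 0 CPM in colon replicate 1 and 13.5 CPM in colon replicate 2 (2 UMIs), against 109 and 103 CPM in the other cells of small intestine and 10.6 and 10.8 CPM in those of colon. *Hoxa10* had 0 UMIs in members of small intestine replicate 1, 26 UMIs in 22 members of colon replicate 1 (18.5 CPM) and 1 UMI in colon replicate 2, beside 75.8 and 53.6 CPM in other colonic cells and none in those of small intestine. Hoxd genes summed to 48.3, 73.3 and 33.7 CPM in members, against 11.2 and 13.7 CPM in the other cells of small intestine and 51.2 and 57.6 CPM in those of colon.

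**Figure D5:**
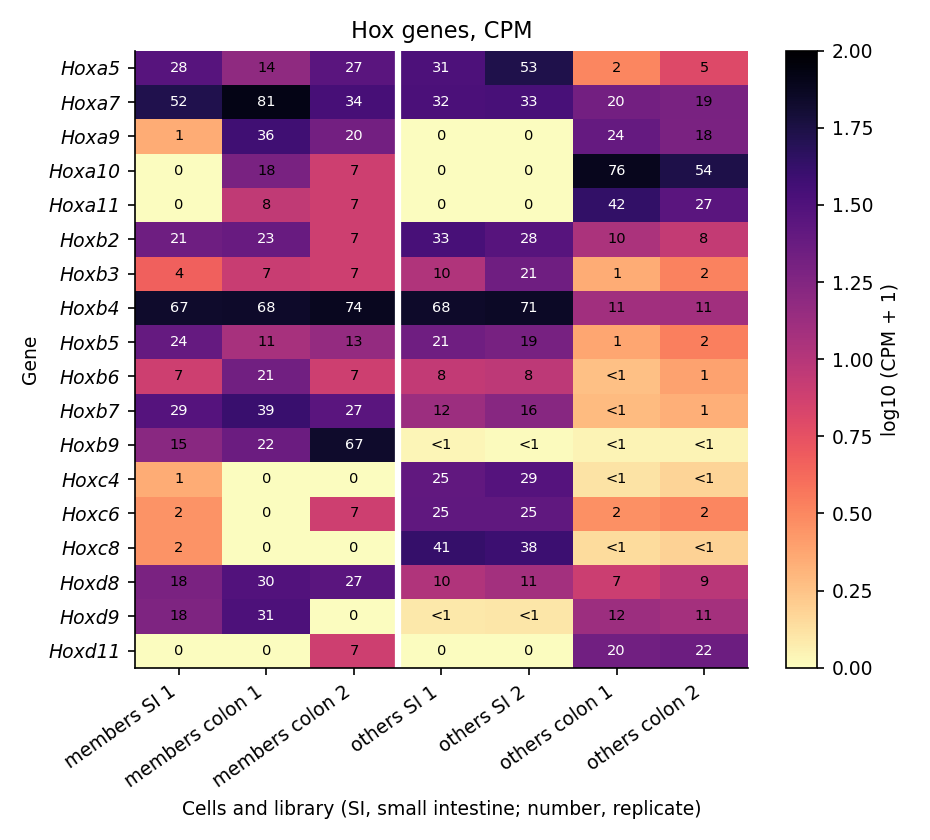
Level of 18 Hox genes (colour, log10 of CPM + 1, with CPM printed in each field) in members of small intestine replicate 1 and both colon libraries and in the other cells of all 4 libraries. *Hoxb4* stands between 67.2 and 74.1 CPM in members of both intestines and at 11.4 and 11.5 CPM in other cells of colon, and *Hoxb9* is below 1 CPM in all other cells.

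A test over libraries was possible with 3 of them, small intestine replicate 1 against both colon libraries, which leaves 1 residual degree of freedom. Small intestine has 1 library in it, so the spread comes from the colon libraries alone, of which replicate 2 held 23 members, 10 of them with pericyte or fibroblast markers. It was set up after the data had been seen, since small intestine replicate 2 held 1 member. In the quasi-likelihood test of edgeR, 0 of 9894 genes passed in either direction (0% called) at an adjusted p of 0.05 and a log2 fold change of 1.5. At an unadjusted p of 0.05, 180 genes passed, of which 65 were higher in colon, and DESeq2 called 0 genes higher in colon and 2 in small intestine (*Scgb3a1* and *Cd74*). The lowest Benjamini-Hochberg adjusted p of edgeR was 0.263. It was shared by *Ccl2* (log2 fold change -8.81, SE 0.99), *Cd74* (-6.38, SE 0.78), *H2-Eb1* (-6.93, SE 0.91), *H2-Aa* (-6.03, SE 0.82) and *Scgb3a1* (-4.22, SE 0.58), all lower in both colon libraries. Over the alternatives the adjusted p ranged from 4.85e-15 to 0.433 for *Ccl2*, 7.88e-12 to 0.168 for *Cd74* and 3.69e-06 to 0.186 for *Scgb3a1*. The fit therefore says little for or against the regional differences above, which have no test with replicates in both intestines.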

How the data were processed

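Single cell libraries of sorted stromal cells were made by the authors with droplet kits that read either mRNA end (3′ or 5′). The kit of each library is not given in the sources used here. The genome build was mm10, and the authors ran Cell Ranger for alignment and counting (3.0.2 per the file headers of the replicate 1 libraries, 3.1.0 for replicate 2). The processing notes also name Seurat 3. What they deposited are unnormalized UMI counts, 28692 gene rows by 34983 barcodes in all. Positions are of GENCODE vM21, where 28339 gene IDs matched. Columns of per-sample values left unused numbered 0.

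Cells were filtered and chosen as described above, and the members and gene lists were chosen with earlier results of these data known. UMIs were summed over members per library and scaled to CPM of the UMIs in those members. Libraries differed in the number of members and hence in precision, with 1636223 UMIs in members of small intestine replicate 1, 1406104 in colon replicate 1 and 148439 in colon replicate 2. With 1 library a group, exact Poisson intervals (95%) were given and no test. A sum of 0 was set to a floor of 3 counts for a fold, and where a sum held 1 to 3 counts the ratio has its counting interval. Shares of cells were also computed with each cell thinned to 1000 UMIs. The lymphatic-like gate and the fit over 3 libraries were set after seeing the data.

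Named genes were the rule markers, up to 12 per direction with the largest fold in the replicate 1 comparison, 25 by fold of members over other cells (at least 100 UMIs in members), and genes of the lists. *Pkhd1l1*, *Btnl9*, *Ltc4s*, *Hoxb9* and the genes of the lymphatic-like split outside the lists (*Fgl2*, *Il7*, *Thy1* and *Cyp4b1*) were chosen after their values were seen. A gene of the lists entered the analysis and is not reported here. The fit used edgeR 4.0.16 (filterByExpr, TMM, robust quasi-likelihood fit) in R 4.3.3, with DESeq2 1.42.0 as an alternative. On simulated counts for this comparison (9747 genes, 191 changed by 3 on the log2 scale) it recovered 50.8% with 4 false calls. Other steps ran in Python 3.11.15 with numpy 2.4.6, scipy 1.17.1 and pandas 2.3.3.

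Doublets were called with scrublet in scanpy 1.11.5 and removed only as an alternative. It marked 11 of 1834, 1 of 15263, 32 of 2431 and 458 of 12688 cells, and so did not work in small intestine replicate 2. Libraries shared few barcodes, 8 between the replicate 1 libraries and 69 between the replicate 2 libraries, and no member barcode was a member in a second library. Symbols carried by more than 1 row (67) were kept apart by gene ID. Replicates are separate experiments per the labels.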

Additional observations from a re-analysis of the deposited data

Results flagged for a closer look

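For 3 genes the members of the replicate 1 libraries moved in one direction between the intestines and the other cells in the opposite direction. Colon replicate 2 lay on the same side as colon replicate 1 for *Cd36* and *Wnt2*, and level with small intestine for *Hoxb6*. All 86 *Wnt2* UMIs in members of small intestine replicate 1 lay in lymphatic-like cells. Colon replicate 2 held 1 such cell, so its 0 UMIs say little on *Wnt2*. *Cd36* had a log2 ratio of colon over small intestine of -1.93 in members of the replicate 1 libraries and 2.06 in their other cells. Members stood at 794 CPM in small intestine and 208 and 236 CPM in colon, while other cells stood at 5.13 and 0.247 CPM in small intestine and 21.4 and 11.4 CPM in colon.

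*Wnt2* had a log2 ratio of -4.62 in members and 4.41 in other cells. Members stood at 52.6 CPM in small intestine and 2.13 and 0 CPM in colon, while other cells stood at 0.801 and 0.855 CPM in small intestine and 17.0 and 21.1 CPM in colon.

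*Hoxb6* had a log2 ratio of 1.62 in members and -3.23 in other cells. Members stood at 6.72 CPM in small intestine and 20.6 and 6.74 CPM in colon, the last from 1 UMI, while other cells stood at 7.78 and 8.23 CPM in small intestine and 0.83 and 1.46 CPM in colon. The difference between members and other cells was not tested for any of the 3 genes, because small intestine replicate 2 held 1 member.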

How the results depend on the processing

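No paired analysis was possible because small intestine replicate 2 held 1 member, so the replicate numbers gave 1 usable pair. For the same reason the planned comparison over 4 libraries and the planned test of members against other cells by intestine were not run, nor any of their alternatives, the replicate block and leaving out each library included. Shares of members kept their order under each alternative (minimum genes, mitochondrial share, number of markers, *Pdgfra*, doublets and thinning). The share in small intestine replicate 1 was 17.0% with 4 of 6 markers. After thinning to 1000 UMIs it was 9.76%, with 6.87% in colon replicate 1 and 0% in small intestine replicate 2.

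The fit over 3 libraries depended on its settings, and the cause was not tested. It called 1 gene higher in colon and 10 in small intestine without scrublet calls, 6 and 29 without members that carried pericyte or fibroblast markers, and 5 and 13 without the low-count filter. DESeq2 called 2 genes in small intestine. It called none with 4 of 6 markers or DESeq2 size factors. These alternatives and those that follow were chosen after seeing the data.

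Of the 24 genes named from the replicate 1 comparison, all kept their direction and passed with 4 of 6 markers, without scrublet calls and with libraries scaled to a median ratio of 1. Without members that carried markers of other cell types, 8 of 12 colonic genes passed, *Postn* did not (log2 ratio 0.53) and 3 had no fold. With colon replicate 2 in place of replicate 1, where 23 of 195 colonic and 21 of 165 small intestinal calls were shared, 3 of the named colonic genes passed and 9 had too few counts for a fold. Of the 12 small intestinal genes, 7 passed, *Madcam1* (-1.17), *Wnt2* (-1.38) and *Lif* (-1.35) did not, 1 had no fold, and *Selp* turned to 3.14.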
